A study of Mus musculus with 9 samples.

Results

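The 4 POU class 3 genes Pou3f1, Pou3f2, Pou3f3 and Pou3f4 were followed through 9 RNA sequencing libraries of the mouse cochlear duct at E14.5. They were taken by symbol from a list and matched to the table by Ensembl identifier, and all 4 were found among its 54232 genes. Each library held the ducts from both inner ears of 1 embryo of the Prdm16 cGT gene trap strain on the FVB/NJ background. Intercrosses of Prdm16 cGT/+ mice gave 3 WT (Prdm16 +/+), 3 heterozygous (Prdm16 cGT/+, here Het) and 3 null (Prdm16 cGT/cGT, here Null) littermates. The trapped allele is carried by every cell of the embryo, so it is not limited to the cochlear epithelium. The total count ranged from 24095322 to 30819118 per library. Prdm16 itself stood at 202 ± 20.98 (SD, n = 3) CPM (counts scaled to an equal library total, TMM-normalised over the 9 libraries) in WT, 138 ± 14.5 (SD, n = 3) in Het and 23.4 ± 4.16 (SD, n = 3) in Null, in the order of the labels.

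POU proteins bind DNA through a POU-specific domain joined by a linker to a POU homeodomain, and the class 3 members are known mainly from the developing nervous system, where they often act with SOX proteins. Pou3f1 (also called Oct6) is known for its part in Schwann cell myelination, and Pou3f2 (Brn2) and Pou3f3 (Brn1) for overlapping parts in cortical neurogenesis. Pou3f4 (Brn4) is a classical gene of the otic mesenchyme, and loss of its human counterpart causes X-linked deafness. Prdm16 is a zinc finger transcriptional regulator, and in the duct at this stage it marks Kölliker's organ, the epithelial ridge beside the future sensory cells. The question here was how each family member stood in the 3 genotypes, with Pou3f2 and Pou3f3 taken as epithelial and Pou3f4 as mesenchymal.

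All 4 genes are annotated with 1 transcript and 1 exon (GENCODE M21, mm10). Pou3f1 (ENSMUSG00000090125) lies at chr4:124656807-124660655 on the plus strand and Pou3f2 (ENSMUSG00000095139) at chr4:22482780-22488366 on the minus strand. Pou3f3 (ENSMUSG00000045515) lies at chr1:42695768-42703176 and Pou3f4 (ENSMUSG00000056854) at chrX:110814280-110817207, both on the plus strand. Prdm16 is also on chromosome 4, with its start 132.1 Mb from that of Pou3f2. The coding sequences of the members were 71.3% to 75.1% identical in pairs, yet no stretch of 50 bases was shared between any pair, and the longest identical run was 38 bases, between Pou3f1 and Pou3f2. Reads of 50 bases could therefore be told apart between the members.
The sequences just before the starts of the 3 members with more than trace RNA are shown, as RefSeq gives them for GRCm38.p6, 5′ to 3′ in the direction of the gene. Capitals mark CCAAT, a common promoter motif, where its letters run in the direction of the gene.
Pou3f2 promoter, chr4:22488367-22488616, minus strand: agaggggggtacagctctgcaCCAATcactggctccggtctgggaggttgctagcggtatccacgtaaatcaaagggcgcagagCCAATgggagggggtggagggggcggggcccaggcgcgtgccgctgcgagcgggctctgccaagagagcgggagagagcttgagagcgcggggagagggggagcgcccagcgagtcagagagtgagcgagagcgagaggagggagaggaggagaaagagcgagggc
Pou3f3 promoter, chr1:42695518-42695767, plus strand: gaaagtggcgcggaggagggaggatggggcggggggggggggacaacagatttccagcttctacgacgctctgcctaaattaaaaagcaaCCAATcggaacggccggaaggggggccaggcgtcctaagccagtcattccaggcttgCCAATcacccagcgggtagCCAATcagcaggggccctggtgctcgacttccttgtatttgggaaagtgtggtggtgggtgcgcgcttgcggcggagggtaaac
Pou3f4 promoter, chrX:110814129-110814279, plus strand: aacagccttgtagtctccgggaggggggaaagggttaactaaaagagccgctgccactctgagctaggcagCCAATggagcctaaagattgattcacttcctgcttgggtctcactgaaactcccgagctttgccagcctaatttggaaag
Pou3f1 had no promoter entry.
Within the 250 bases before each RefSeq start (for Pou3f4, the 151 that also precede the GENCODE start are printed), both strands searched, CCAAT was found 2 times for Pou3f2, 3 times for Pou3f3 and 3 times for Pou3f4. At least 1 CCAAT was found in 33.8% of all 32851 promoters, and at least 3 in 2.79%. GGGCGG was found once each for Pou3f2 and Pou3f3 and not for Pou3f4 (32.7% of all promoters), while TATAAA (12.4% of all) and the octamer ATGCAAAT (1.6% of all) were found in none of the 3 windows. CCAAT was thus found for the member whose RNA was called between genotypes and for those not called, and the matches are a description of the letters only. The study measured Pou3f2 by qPCR as well, with the primers below, given because they place that assay on the same exon as the read counts.
Pou3f2 forward primer, chr4:22488102-22488122, minus strand: gcagcgtctaaccactacagc
Pou3f2 reverse primer, chr4:22487941-22487959, plus strand: gcggtgatccactggtgag
Both primers lie in the coding sequence, they enclose 182 bases, and neither had an exact site in another annotated transcript. As Pou3f2 has a single exon, the product spans no intron.

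To compare the members with each other, levels were divided by exon length and given as CPM per kb. Pou3f3 was the leading member in every library. In WT it stood at 27.1 ± 4.46 CPM per kb, followed by Pou3f4 at 10.4 ± 9.02, Pou3f2 at 1.92 ± 0.235 and Pou3f1 at 0.0543 ± 0.00903 (SD, n = 3 each). The ranges of Pou3f4 (1.11 to 19.1) and Pou3f2 (1.66 to 2.11) overlapped in WT, so their order was not set beyond the spread between embryos. The other neighbours in that order did not overlap. In Het the order was Pou3f3 at 21.1 ± 1.44, Pou3f2 at 1.32 ± 0.126, Pou3f4 at 0.771 ± 0.386 and Pou3f1 at 0.00949 ± 0.0164 (SD, n = 3 each), with no overlap between neighbours. In Null it was Pou3f3 at 22.4 ± 2.39, Pou3f4 at 4.62 ± 7.56, Pou3f2 at 0.453 ± 0.0745 and Pou3f1 at 0.0935 ± 0.0885 (SD, n = 3 each), and here the range of Pou3f4 (0.220 to 13.3) again enclosed that of Pou3f2 (0.405 to 0.539).
Pou3f3 made up 59.9% to 96.9% of the family's summed CPM per kb. The share of Pou3f2 was 5.38% ± 2.29 in WT, 5.71% ± 0.932 in Het and 1.8% ± 0.715 in Null (SD, n = 3 each). The share of Pou3f4 was 22.6% ± 16.6 in WT, 3.25% ± 1.45 in Het and 12.2% ± 19.1 in Null (SD, n = 3 each), and the share of Pou3f1 did not pass 0.501% in any library. By CPM per kb, Pou3f3 lay between the 91.8th and the 95.6th percentile of the 33363 genes with any count, and Pou3f2 between the 51.6th and the 65.9th.

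**Figure D1:**
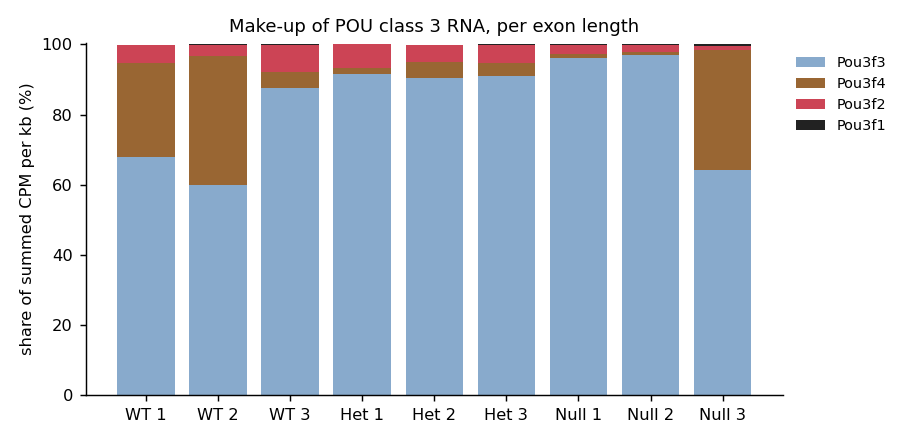
Share of each POU class 3 gene in the family's summed CPM per kb of exon (%), 1 stacked bar per library. Pou3f3 makes up at least 59.9% of every bar, and the Pou3f4 part is widest in WT 1, WT 2 and Null 3.

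Pou3f2 fell in the null duct, and its level in the heterozygotes lay between the other two genotypes in every embryo. Its counts were 319, 236 and 326 in WT 1 to WT 3, 203, 196 and 187 in Het 1 to Het 3, and 73, 72 and 54 in Null 1 to Null 3. In CPM these were 11.8, 9.25 and 11.1 in WT, 8.15, 7.06 and 6.83 in Het, and 3.01, 2.32 and 2.26 in Null. No 2 genotypes overlapped: the lowest WT library was above the highest Het library, and the lowest Het library was above the highest Null library. The mean in Null was 23.7% of that in WT. The log2 fold change of Null against WT was -2.08 (SE 0.195; edgeR quasi-likelihood test, adjusted p = 0.00316), and a gene was called where the adjusted p was under 0.05 and the log2 fold change was beyond 0.5 in size. By p, Pou3f2 ranked 34 of 17168 genes tested. Pou3f2 was the 1 member called lower of the 3 that passed the filter on low counts. Of all genes tested 0.786% were called lower, 1.71% were called in either direction, and 8.95% were lower in all 3 Null than in all 3 WT libraries. The call held in all 16 alternatives tried, with adjusted p from 7.49e-17 to 0.0269.
Between Null and Het the log2 fold change of Pou3f2 was -1.54 (SE 0.197; edgeR adjusted p = 0.0192), with the Null mean at 34.5% of the Het mean. In this comparison 0.322% of 17067 genes were called lower, 0.615% were called in either direction, and 9.1% were lower in all 3 libraries. Leaving out Het 1, Het 2 or Het 3 ended this call, with edgeR adjusted p = 0.122, 0.103 and 0.12 in turn, while the log2 fold change stayed between -1.46 and -1.58.
Between Het and WT the log2 fold change of Pou3f2 was -0.54 (SE 0.135), the Het mean being 68.6% of the WT mean, and it was not called (edgeR adjusted p = 0.111; 0.0136 to 1 over its alternatives). Here 0.0984% of 17269 genes were called lower, 0.151% were called in either direction, and 8.99% were lower in all 3 Het than in all 3 WT libraries. DESeq2 (log2 fold change -0.55, adjusted p = 0.0345) and edgeR without the filter (-0.55, adjusted p = 0.0136) did call it. The Null against WT and the Het against WT values share the WT libraries.

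**Figure D2:**
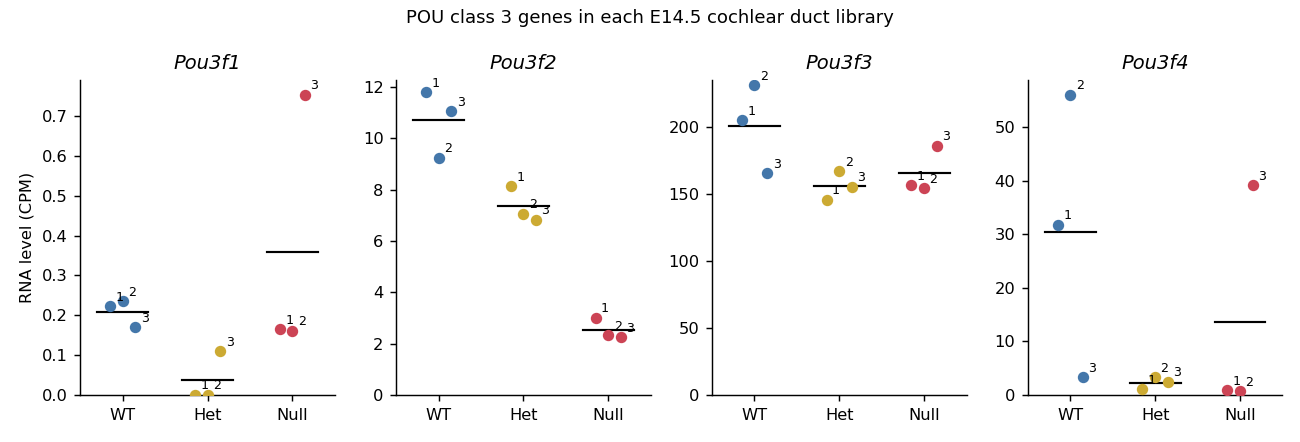
RNA level (CPM, linear axis from 0, a different scale in each panel) of the 4 members in each library, with the replicate number beside each point and a line at the mean of each genotype (n = 3). The 3 genotypes separate without overlap for Pou3f2, while the Pou3f4 points are high in WT 1, WT 2 and Null 3 only.

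The gene nearest to Pou3f2 had the same order of group means. Gm30731, a lincRNA on the opposite strand whose start lies 2182 bases from that of Pou3f2 with no shared base, had counts of 20, 22 and 22 in WT, 13, 5 and 14 in Het, and 3, 9 and 1 in Null. All 3 Null libraries were below all 3 WT libraries, but Null and Het overlapped. Its log2 fold change of Null against WT was -2.27 (SE 0.568; edgeR adjusted p = 0.124), which did not pass the test at these counts, and that of Het against WT was -0.95 (edgeR adjusted p = 0.386).

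**Figure D3:**
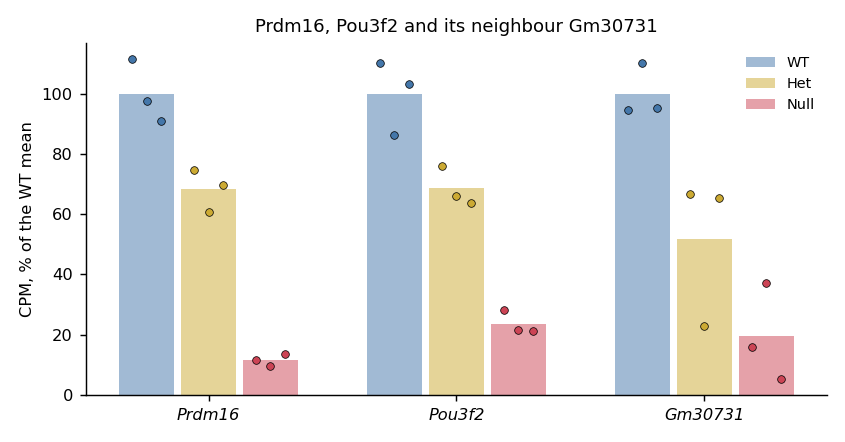
CPM of Prdm16, Pou3f2 and the lincRNA Gm30731 as a percentage of each gene's WT mean, with bars at the mean of 3 libraries and a point for each library. Pou3f2 is at 68.6% in Het and 23.7% in Null, and the Gm30731 points rest on 1 to 22 counts each.

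The libraries differed in how much RNA of other cells they held. A list of 19 mesenchyme markers, taken from the study's single-cell marker table without Pou3f4, summed to 862, 1409 and 207 CPM in WT 1 to WT 3, to 131, 192 and 153 CPM in Het 1 to Het 3, and to 141, 95.4 and 1830 CPM in Null 1 to Null 3. WT 1, WT 2 and Null 3 were thus the mesenchyme-rich libraries. The 7 epithelium markers (Epcam, Cdh1, Krt8, Krt18, Cldn6, Esrp1 and Oc90) summed to 9295 to 10680 CPM in WT, 11010 to 11350 CPM in Het and 12020 to 16120 CPM in Null. Every library thus held epithelial RNA, and this sum was ordered by genotype without overlap, although none of the 7 was called in any comparison by edgeR (1, 2 and 1 at an unadjusted p under 0.05 in Null against WT, Het against WT and Null against Het; DESeq2 called 1 in Null against WT). The 0 calls are near the background, where 1.71%, 0.151% and 0.615% of all genes were called and 2101 of 17168, 2266 of 17269 and 1944 of 17067 had such a p. The 7 did not move alike: in Null against WT the log2 fold change was 0.00 for Cdh1, -0.04 for Esrp1 and 0.07 for Epcam. It was 0.25 for Cldn6, 0.33 for Krt8, 0.42 for Krt18 and 0.53 for Oc90, which the study's marker table lists for the roof. The ordered sum is therefore no measure of epithelial content alone. The part of epithelial RNA in the values of the members was not tested. None of the 19 markers was at 0 in the series, and all 19 had these libraries as their 3 highest, as had the 4 endothelium markers Pecam1, Cdh5, Kdr and Tek. Of 17797 genes tested over the 9 libraries, 806 (4.53%) had this pattern, which was noticed after the values were seen. In bulk RNA, fewer cells of a type and less RNA per cell cannot be told apart.
Pou3f2 did not have that pattern: 2.26 CPM in the mesenchyme-rich Null 3 was its lowest level, and 11.1 CPM in the mesenchyme-poor WT 3 was above that of WT 2. In a fit without WT 1, WT 2 and Null 3, chosen after the data were seen and leaving 1 WT library that was assumed to vary like the others, the log2 fold change of Null against WT was -2.05 (SE 0.243; edgeR adjusted p = 0.00303) and that of Null against Het -1.46 (SE 0.201; edgeR adjusted p = 0.00817). The 18 markers of Kölliker's organ, from the same table without Prdm16 and without Tectb, which the table lists for the prosensory domain as well, summed to 5157 to 6173 CPM in WT, 5029 to 5971 CPM in Het and 3089 to 3333 CPM in Null. Of these 18, 12 were called lower and 1 higher in Null against WT, where 0.786% of all genes tested were called lower and 1.71% in either direction, with a median log2 fold change of -0.87 against 0.01 over all genes tested, and in Het against WT 0 were called lower and 1 higher, where 0.0984% of all genes were called lower and 0.151% in either direction. In that comparison 9 of the 18 were at an unadjusted p under 0.05, against 2266 of 17269 genes, and DESeq2 called 2. Tectb, which encodes beta-tectorin of the tectorial membrane, rose instead, with a log2 fold change of 0.94 in Null against WT (SE 0.16; edgeR adjusted p = 0.0326) and 0.62 in Het against WT (SE 0.0617; edgeR adjusted p = 0.0107). The part of this cell type's amount in the level of Pou3f2 was not tested. In Het against WT the list's log2 fold changes lay between -0.52 and 0.86 (median -0.10). Pou3f2, at -0.54, was close to the lowest of these markers, Efhd1.

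Pou3f4, the mesenchymal member, differed widely between embryos of the same genotype. Its counts were 857, 1430 and 96 in WT 1 to WT 3, 26, 91 and 67 in Het 1 to Het 3, and 20, 20 and 934 in Null 1 to Null 3. In CPM these were 31.7, 56.0 and 3.25 in WT, 1.04, 3.28 and 2.45 in Het, and 0.825, 0.645 and 39.1 in Null. The mesenchyme-rich libraries held 31.7 to 56.0 CPM and the other 6 held 0.645 to 3.28 CPM. Among these 6, both Null libraries were below all 3 Het libraries and WT 3. The highest library was 86.8 times the lowest, with 17.2 times within WT and 60.6 times within Null, against 19.2 times for the summed mesenchyme markers. As a share of that sum, Pou3f4 was 3.68%, 3.98% and 1.57% in WT 1 to WT 3, 0.797%, 1.7% and 1.6% in Het 1 to Het 3, and 0.587%, 0.677% and 2.14% in Null 1 to Null 3. The gene is X-linked, and of the 3 high libraries WT 1 held Y-linked RNA while WT 2 and Null 3 did not.
No genotype difference in Pou3f4 was called by edgeR on the 6 libraries of each pair with the filter and without a block, but that of Het against WT was called in 4 of its 16 alternatives. The log2 fold change was -1.18 (SE 1.45; adjusted p = 0.794) for Null against WT, -3.73 (SE 0.829; adjusted p = 0.0848) for Het against WT and 2.58 (SE 1.37; adjusted p = 0.506) for Null against Het. The Het value depended on the libraries: without WT 3 it was -4.26 (edgeR adjusted p = 3.18e-05), and in the fit without WT 1, WT 2 and Null 3 it was -0.52 (SE 0.498; edgeR adjusted p = 1). It was also called by DESeq2 at -3.75 (adjusted p = 0.0188) and by edgeR blocked on replicate number at -3.33 (adjusted p = 0.0424). Without the filter edgeR called it at -3.73 (SE 0.193; adjusted p = 1.31e-54). That SE is far below the 0.829 with the filter, while WT libraries differed 17.2 times, so this p understates the spread between embryos. With the scaled mean log2 CPM of the 19 mesenchyme markers as a covariate, edgeR gave -0.03 (adjusted p = 0.989). For Null against Het the direction turned without Null 3, at -1.63 (edgeR adjusted p = 0.205). For Null against WT it moved to -5.37 (edgeR adjusted p = 0.0624) without Null 3 and to -0.37 (edgeR adjusted p = 0.97) without WT 2. It was -2.14 (SE 0.565; edgeR adjusted p = 0.137) in the fit without WT 1, WT 2 and Null 3 and -0.60 (SE 0.142; edgeR adjusted p = 0.0873) with the mesenchyme covariate, so it kept its direction there and was not called. None of the 19 mesenchyme markers was called by edgeR in any of the 3 comparisons (1.71%, 0.151% and 0.615% of all genes were called in Null against WT, Het against WT and Null against Het). In Het against WT, however, DESeq2 called 10 of the 19, against 317 of 32000 genes, and edgeR had all 19 at an unadjusted p under 0.05, against 2266 of 17269 genes. In Null against WT and Null against Het, DESeq2 called 0 and edgeR had 1 and 3 at an unadjusted p under 0.05. In the order Null against WT, Het against WT and Null against Het, their median log2 fold changes of -0.29, -2.7 and 2.02 had the signs of those of Pou3f4.

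Pou3f3 was abundant and was called in no comparison. Its counts were 5543, 5902 and 4890 in WT 1 to WT 3, 3635, 4641 and 4262 in Het 1 to Het 3, and 3797, 4792 and 4448 in Null 1 to Null 3. In CPM these were 205, 231 and 166 in WT, 146, 167 and 156 in Het, and 157, 155 and 186 in Null. Highest and lowest library differed 1.59 times, and every pair of genotypes overlapped. The log2 fold change was -0.28 (SE 0.133; edgeR adjusted p = 0.455) for Null against WT, -0.36 (SE 0.104; edgeR adjusted p = 0.157) for Het against WT and 0.09 (SE 0.0983; edgeR adjusted p = 0.738) for Null against Het. Without WT 2 the Null against WT value was -0.16 (edgeR adjusted p = 0.867; -0.40 to -0.16 over left-out embryos). These missed calls do not show that the levels were equal. The Het value passed the p threshold but not the fold required in 3 alternatives: -0.48 without WT 3 (edgeR adjusted p = 0.00187), -0.37 in DESeq2 (adjusted p = 0.00546) and -0.36 without the filter (edgeR adjusted p = 8.84e-09). The SE without the filter was 0.0539, against 0.104 with it, so this last p is to be read with caution.
The 3 highest Pou3f3 libraries were the mesenchyme-rich ones, at 186 to 231 CPM, and the other 6 held 146 to 167 CPM. The level thus remained high in libraries poor in mesenchyme markers as well. Which cells the Pou3f3 RNA came from was not tested, so its place as an epithelial member was taken and not shown here. In the fit without WT 1, WT 2 and Null 3 its log2 fold change was -0.09 (SE 0.123; edgeR adjusted p = 0.838) for Null against WT and -0.08 (SE 0.116; edgeR adjusted p = 1) for Het against WT. Pantr1, a lincRNA whose start lies 926 bases from that of Pou3f3 on the opposite strand, also had the mesenchyme-rich libraries as its 3 highest, at 17.6 to 22.5 CPM against 12.7 to 17.1 CPM in the other 6. It was not called in any comparison (edgeR adjusted p = 0.581, 0.241 and 0.78 for Null against WT, Het against WT and Null against Het). AC122898.1, a transcript that spans Pou3f3 on the same strand, shares no exon base with it.

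**Figure D4:**
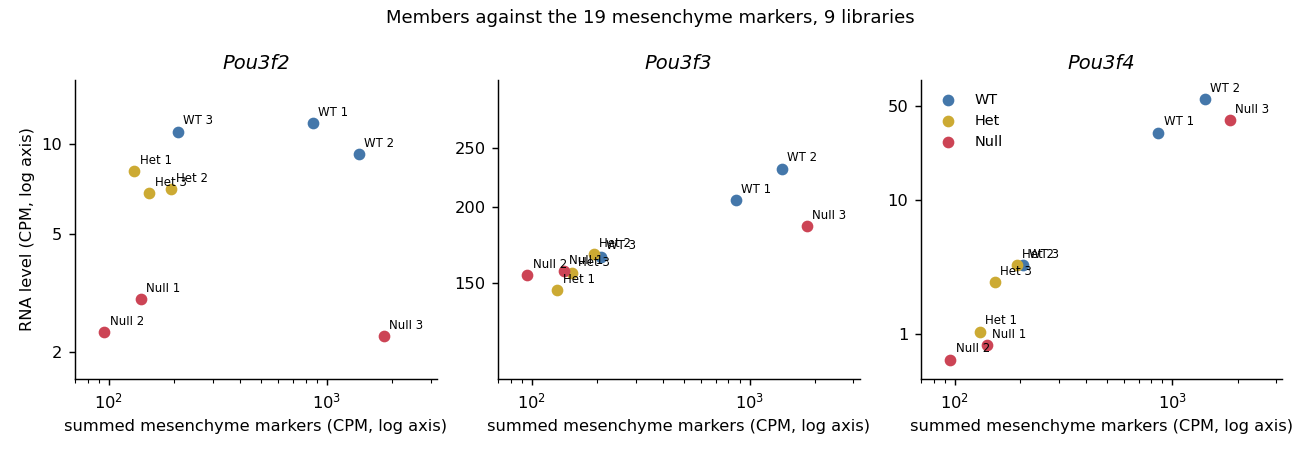
RNA level (CPM, log axis) of Pou3f2, Pou3f3 and Pou3f4 against the summed level of 19 mesenchyme markers (CPM, log axis), 1 point per library coloured by genotype. Pou3f4 and Pou3f3 are highest in the 3 libraries on the right, whereas Pou3f2 is ordered by genotype.

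Pou3f1 was at the edge of detection. Its counts were 6, 6 and 5 in WT 1 to WT 3, 0, 0 and 3 in Het 1 to Het 3, and 4, 5 and 18 in Null 1 to Null 3. The limit that a count of 0 allows, 3 counts, corresponded to 0.0968 to 0.126 CPM per library, for counting error only. Het was at or under this limit in every library, and the single value above 6 counts was in Null 3. Pou3f1 did not pass the filter. In edgeR without the filter, adjusted p was 0.741 for Null against WT, 0.466 for Het against WT and 0.237 for Null against Het. Gm2164, an antisense transcript that shares 330 exon bases with Pou3f1, had 0 counts in all 9 libraries. As the strand setting is not known, reads in those bases may not have been assigned to Pou3f1.

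**Figure D5:**
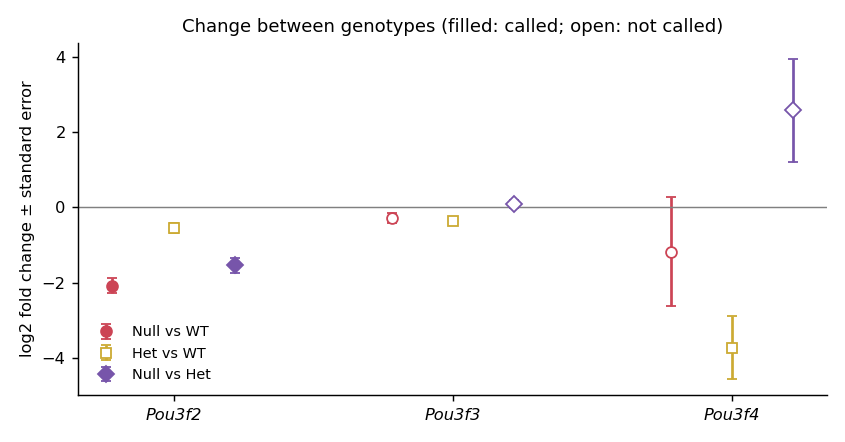
Log2 fold change with its standard error (edgeR, 3 libraries per genotype) of Pou3f2, Pou3f3 and Pou3f4 in the 3 comparisons, with filled symbols where called. The Pou3f2 symbols for Null against WT (-2.08) and Null against Het (-1.54) are filled, and the Pou3f4 bars are the widest.

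Pou3f2 and Pou3f3 were each set against Pou3f4 within each library. The Pou3f2 to Pou3f4 ratio of CPM was 0.372, 0.165 and 3.4 in WT 1 to WT 3, 7.81, 2.15 and 2.79 in Het 1 to Het 3, and 3.65, 3.6 and 0.0578 in Null 1 to Null 3. It was under 1 only in the 3 mesenchyme-rich libraries. The Pou3f3 to Pou3f4 ratio was 6.47, 4.13 and 50.9 in WT, 140, 51 and 63.6 in Het, and 190, 240 and 4.76 in Null, and so was lowest in the same libraries. With 3 against 3 embryos the test of these ratios could not pass 0.05, so it does not show whether the genotypes differed. For the 6 differences of mean log2 ratio the exact two-sided permutation p ran from 0.1 to 1, 0.1 being the smallest that 3 against 3 can give, and 0.6 to 1 after Benjamini-Hochberg adjustment over the 6. The largest was 2.79 on the log2 scale, for Pou3f3 to Pou3f4 in Het against WT (exact permutation p = 0.1), where every Het ratio was above every WT ratio by as little as 51 against 50.9. The Pou3f2 to Pou3f3 ratio, given as a description, was 5.76%, 4% and 6.67% in WT, 5.59%, 4.22% and 4.39% in Het, and 1.92%, 1.5% and 1.21% in Null, so that all 3 Null libraries were below the other 6.

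Genes with patterns most like each member were named as the 5 with the highest Pearson r of log2 CPM over the 9 libraries, which share genotype groups and mesenchyme content, so r is a description. For Pou3f2 these were Myo5b (r = 0.991), a myosin motor, Gm38124 (0.990), Calb1 (0.983), the calcium buffer calbindin, Syt11 (0.983), a synaptotagmin, and 1500015O10Rik (0.982), the first gene of the study's Kölliker's organ list. Of the 18 Kölliker's organ markers, 12 had r above 0.8 with Pou3f2 (median 0.936, lowest -0.69), against 0 of the 19 mesenchyme markers (median 0.128). Among all 17796 genes compared, 175 had r above 0.9 with Pou3f2, 82 with Pou3f3 and 226 with Pou3f4. No such count was made at 0.8. For Pou3f3 the 5 genes most like it included Car3 (0.985), a carbonic anhydrase, Otor (0.980), Tll2 (0.974) and Itga1 (0.973), of which Car3 and Otor are on the mesenchyme list. Pou3f3 had r above 0.8 with 17 of the 19 mesenchyme markers (median 0.861) and 0 of the Kölliker's organ markers (median 0.294). For Pou3f4 they were Colec12 (0.994), Ets1 (0.994), Coch (0.991), which encodes cochlin, Col5a2 (0.990), a fibrillar collagen chain, and Zic2 (0.990). All 19 mesenchyme markers had r above 0.8 with Pou3f4 (median 0.955). By this measure Pou3f3 lay nearer to Pou3f4 than to Pou3f2, with no test made of that difference.

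Of 11 remaining POU genes, 7 were tested in each comparison and 0 were called in edgeR or DESeq2, with 0 at an unadjusted p under 0.05 in edgeR. As 1.71%, 0.151% and 0.615% of all genes were called by edgeR in Null against WT, Het against WT and Null against Het, 0 of 7 is near the background and is no result about these genes. Their median log2 fold change was 0.07 for Null against WT, -0.02 for Het against WT and 0.23 for Null against Het, against 0.01, 0.00 and 0.01 over all genes tested. Per length, the widely expressed Pou6f1 (5.28 ± 0.505 CPM per kb in WT, SD, n = 3) and Pou2f1 (4.85 ± 0.103) and the hair cell gene Pou4f3 (3.75 ± 1.504) had WT means between those of Pou3f4 and Pou3f2, and Pou2f2 (0.354 ± 0.105) lay below Pou3f2. The WT range of Pou3f4 (1.11 to 19.1 CPM per kb) enclosed all 3, so its place among them was not set beyond the spread, and in Het its mean (0.771) was below theirs. In Null, the ranges of Pou3f2 (0.405 to 0.539 CPM per kb) and Pou2f2 (0.320 to 0.564) overlapped. Pou3f3 was thus above every other POU gene in the duct in all 3 genotypes.
SOX and other factors known to act with POU class 3 proteins (Sox2, Sox4, Sox11, Sox21, Sox10 and Tbx1) gave 0 calls among these 6 in any comparison in edgeR or DESeq2, which is again near the background of 0.151% to 1.71%. At an unadjusted p under 0.05 edgeR had 3 in Null against WT, 1 in Het against WT and 1 in Null against Het. Sox2, which marks the prosensory cells, stood at 89.3 ± 5.64, 93.4 ± 3.73 and 103 ± 5.77 CPM (SD, n = 3 each) in WT, Het and Null, with a log2 fold change of 0.20 in Null against WT (edgeR adjusted p = 0.367). Tbx1, with which Pou3f4 is known to interact genetically in the inner ear, was not called in Null against WT (log2 fold change 0.35, SE 0.105, edgeR adjusted p = 0.209). It was higher in all 3 Null than in all 3 WT libraries, but the share of all genes with this order was not counted.
Of 10 genes known as targets or effectors of POU class 3 factors, 9 were tested. In edgeR 1 was called in Null against WT (1.71% of all genes tested were called), 1 in Null against Het (0.615% of all) and 0 in Het against WT (0.151% of all). In the same order edgeR had 2, 3 and 2 at an unadjusted p under 0.05. DESeq2 called 2, 2 and 0, against 618, 357 and 317 among all genes. With 9 genes tested, no result about the list is drawn from these counts. Cyp26a1 was not called by edgeR in Null against WT (log2 fold change -0.61, SE 0.18, edgeR adjusted p = 0.203). It was lower in all 3 Null than in all 3 WT libraries, as were 8.95% of all genes tested. The gene called by edgeR was Cyp26c1, a retinoic acid degrading enzyme, at 37.5 ± 5.97, 31.4 ± 5.53 and 17.6 ± 0.620 CPM (SD, n = 3 each) in WT, Het and Null. Cyp26c1 fell by 1.10 on the log2 scale in Null against WT (SE 0.137; edgeR adjusted p = 0.00847) and by 0.84 in Null against Het (SE 0.138; edgeR adjusted p = 0.0456), and all 3 Null libraries were the lowest. Epha4, a receptor through which Pou3f4 is known to act in otic mesenchyme, was not called (log2 fold change -0.21 in Null against WT, edgeR adjusted p = 0.645). Fabp7, a radial glia gene known as a Pou3f2 and Pou3f3 target, was not called in Het against WT (log2 fold change -1.06, edgeR adjusted p = 0.184). It was lower in all 3 Het than in all 3 WT libraries, as were 8.99% of all genes tested. Its log2 fold change in Null against WT was 0.05 (edgeR adjusted p = 0.968).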

How the data were processed

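TruSeq libraries from 9 embryos were sequenced as 50-base single reads. The deposited values are raw read counts per Ensembl gene on mm10, made by the authors with STAR. The submitters' processing notes also name cutadapt 1.13, HTSeq 0.6.1p1 and DESeq2, and the strand setting and annotation release are not given in the sources used here. GENCODE M21 named 54165 of 54232 identifiers. Each embryo was 1 replicate, and none of the library pairs agreed within sampling noise. Pairs of genotypes were tested on their own 6 libraries with the edgeR 4.0.16 quasi-likelihood test (R 4.3.3; TMM; filterByExpr, minimum count 10; Benjamini-Hochberg adjustment over all genes tested), called at adjusted p under 0.05 and absolute log2 fold change above 0.5. CPM were TMM-normalised over the 9 libraries. Likeness used log2 CPM with a prior count of 2. Ratios used no prior count, and a prior count of 2 was an alternative for the ratio tests. DESeq2 1.42.0 (size factors), RLE or no scaling, filters (none; mean count of at least 100), a common fit, a replicate block, sex or mesenchyme covariates and leaving out each embryo were alternatives. Fits were tested on simulated data. Shared bases were sought as runs of 50. Named genes were the 4 members, the other POU genes, partner and target lists, genes overlapping a member or starting within 5 kb of one, and the 5 genes most like each member, of which some items are not reported here. The members and lists were chosen with earlier results of these data known.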

Additional observations from a re-analysis of the deposited data

How the results depend on the processing

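The fall of Pou3f2 in Null against WT kept its direction and call in 16 of 16 alternatives (log2 fold change -2.22 to -2.003). In Null against Het it kept both in 13 of 16, the exceptions being the fits without Het 1, Het 2 or Het 3 (range over left-out embryos -1.68 to -1.46). In Het against WT, Pou3f2 was called by DESeq2 (-0.55) and without the filter (-0.55) only (left-out embryos -0.64 to -0.47). Pou3f4 in Het against WT was called by DESeq2 (-3.75), without the filter (-3.73, edgeR adjusted p = 1.31e-54), with the replicate block (-3.33, edgeR adjusted p = 0.0424) and without WT 3 (left-out embryos -4.26 to -2.94). The p without the filter rests on an SE of 0.193 and understates the spread between embryos. In Null against Het, Pou3f4 reversed with the mesenchyme covariate (-0.76), in the fit without WT 1, WT 2 and Null 3 (-1.63) and without Null 3 (left-out embryos -1.63 to 3.14), and Pou3f3 reversed without Null 3 (left-out embryos -0.0063 to 0.14) and in the fit without those 3 libraries (-0.0011). DESeq2 gave no p for Pou3f4 in Null against Het. With embryos left out, the log2 Pou3f2 to Pou3f4 ratio difference ran from -0.38 to 2.61 in Null against WT and from -2.98 to 0.0071 in Null against Het, and that of Pou3f3 to Pou3f4 from -1.35 to 1.47 in Null against Het. The causes were not tested.

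Genes called in Null against WT numbered 293, against 618 with DESeq2, 476 without the filter, 468 in a common fit of 9 libraries, 133 with the replicate block and 68 to 446 with embryos left out. In Het against WT they numbered 26, against 317 with DESeq2, 684 without the filter, 0 in the common fit (1130 at an unadjusted p under 0.05), 197 with the replicate block, 53 with the sex covariate, 11 with the mesenchyme covariate, 14 in the fit without WT 1, WT 2 and Null 3, and 0 to 505 with embryos left out (1833 and 1934 at an unadjusted p under 0.05 without Het 2 and Het 3, where 0 were called). In Null against Het they numbered 105, against 357 with DESeq2, 366 without the filter, 164 in the common fit, 52 with the replicate block, 254 with the mesenchyme covariate, 201 in the fit without WT 1, WT 2 and Null 3, and 12 to 182 with embryos left out. Same-numbered libraries did not deviate together (r -0.284 to 0.202), so the replicate number was not taken as a pairing, and for Pou3f2 the block gave -2.09 in Null against WT, -0.54 in Het against WT and -1.54 in Null against Het. Pou3f1, at 18 counts or fewer, is limited by depth.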
